A study of Rattus norvegicus with 10 samples.

Results

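The transcripts described here are the 4940 single-exon intergenic transcripts that were assembled from the liver libraries. They are the isoforms of the deposited table that carry class code u, an assembled name and 1 exon, out of 51430 isoforms in all. The table holds 6723 assembled class u isoforms, and the spliced ones among them, 1734 after the same exclusion, serve as the comparison class. Genes that also hold the ribosomal family RF00002 were to be left out. That family was found under 15 gene identifiers and removed 0 single-exon transcripts. All coordinates are those of the table, on rat genome build Rnor_6.0.

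Livers came from wild type Wistar rats that had been given a high-fat diet with 60% of calories as fat for 4 weeks. A single injection of streptozotocin, at 35 mg/kg after a 16 h fast, then induced diabetes, with fasting glucose above 16.7 mmol/L from 3 days on. The rats, matched for body weight, received a sleeve gastrectomy (SG, 5 libraries) or the sham operation (SHAM, 5 libraries). The labels place the SG livers 3 months after the operation and state no interval for the SHAM livers, so an effect of the interval and one of the operation cannot be told apart. They do not say that each library is a rat of its own, and p-values therefore measure the spread between these libraries only. Both groups were diabetic, and no library from a healthy rat was analysed here.

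An intergenic transcript is RNA that was assembled from reads outside every annotated gene. Such RNA includes long non-coding RNAs with promoters of their own, RNA of enhancers and of divergent promoters, read-through past the ends of genes, and exons that an annotation lacks. An assembler reads the strand of a transcript from its splice junctions or from a stranded library, and a single-exon transcript has no junction. The sequences of the transcripts are not printed, because no genome of the table's build was used here.

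Library totals ranged from 77617460 to 92110190 estimated counts in SG and from 65824088 to 85520959 in SHAM. Each transcript rested on a median of 43 estimated counts per library (lower quartile 16, upper quartile 118). The summed level of 8 hepatocyte markers was 22316 to 39793 FPKM (a level per length and per library depth) in SG and 25448 to 33964 in SHAM, far above 6 macrophage markers at 74.3 to 234 and 60.6 to 195.9 FPKM. The 3 neutrophil markers summed to 0.774 to 3.15 FPKM in SG and 0 to 1.42 in SHAM, with Mpo among them at 0 throughout. In bulk liver, fewer cells of a type and less RNA per cell cannot be told apart, and the part of other cell types in the results below was not tested.

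The transcripts were short and mostly without a strand. Their length ran from 200 to 70333 nt, with a median of 532 nt, against 2154.5 nt for the spliced intergenic transcripts and 1695 nt for annotated isoforms. No strand was assigned to 4113 of the 4940 (83.3%), while 428 lay on the plus strand and 399 on the minus strand. Transcripts with a strand had a median length of 2113 nt and those without one 474 nt. The share with a strand was 6.48% among the 1095 transcripts shorter than 300 nt and 69.3% among the 352 of 5000 nt or more. All 1734 spliced intergenic transcripts had a strand.

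Most lay far from genes. The median distance to the nearest end of an annotated gene was 68769 bp, and the range was 1 to 3068902 bp. The 95% interval of the median, from order statistics, was 63681 to 74619 bp. It takes the transcripts as independent, which those that adjoin or share a nearest gene are not, so it may be too narrow. Transcripts with a strand lay nearer, at a median of 21788 bp, than those without, at 83626 bp. Against genes with a mean of at least 1 FPKM in these livers, the median distance was 221017.5 bp. In all, 2780 lay upstream of their nearest gene (56.3%), that is beyond its start, and 2160 downstream. The 4940 transcripts shared 2743 nearest genes, and Pabpc5 was nearest to 15 of them. Only 1811 (36.7%) had a nearest gene with a mean of at least 1 FPKM.

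Close to genes, the sides differed. Within 2000 bp, 195 transcripts lay upstream and 52 downstream. All 52 downstream ones were on the strand opposite to the gene, and none was on the same strand or without a strand. The upstream ones were 100 without a strand, 52 on the same strand and 43 on the opposite strand. Another class of the table, code p, holds 365 single-exon isoforms, of which 343 lay downstream of a gene within the same window and 3 of those on the opposite strand. Single-exon isoforms just beyond a gene's end were thus mostly filed under code p, outside the transcripts described here.

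**Figure D1:**
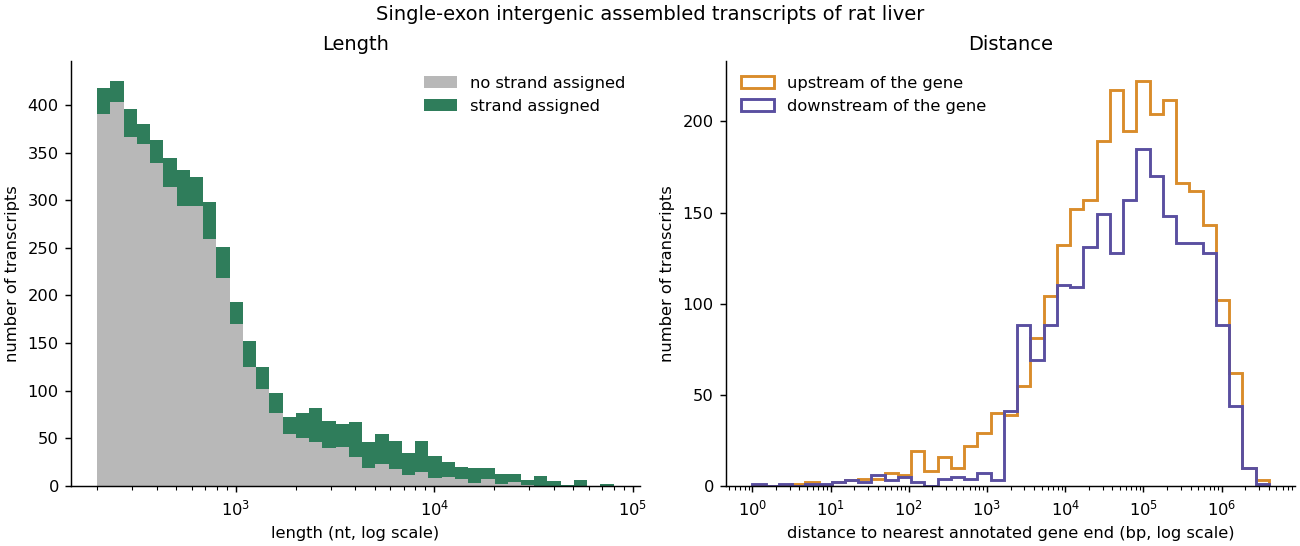
Left, number of single-exon intergenic transcripts by length in nt (log axis), stacked by whether a strand was assigned. Right, number by distance to the nearest annotated gene end in bp (log axis), upstream and downstream of that gene; the median distance was 68769 bp, and strands were assigned to 69.3% of transcripts of 5000 nt or more.

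Levels were low. The median of the transcripts' mean level was 0.903 FPKM, against 0.98 for spliced intergenic and 0.396 for annotated isoforms. Only 94 reached a mean of 5 FPKM, 30 reached 10 and 4 reached 50. Together they held 1.31% ± 0.152 (SD, n = 10) of the summed FPKM of a library, with 1.09 to 1.45% in SG and 1.22 to 1.57% in SHAM. The groups overlapped.

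A larger share of single-exon than of spliced intergenic transcripts was above 0 FPKM in each library. The share was 90.1 to 93.0% per library for single-exon and 82.4 to 85.7% for spliced intergenic transcripts. Intronic assembled transcripts were at 90.3 to 92.2%, so the high share is not particular to the single-exon intergenic ones. For spliced against single-exon transcripts, a test was run. The difference was 7.73 percentage points ± 0.684 (SD, n = 10 libraries) and had the same sign in 10 of 10 libraries (exact paired sign-flip test, two-sided, p = 0.00195, the smallest that 10 libraries allow). Both classes were assembled from these same libraries, so the test covers only how steadily the gap recurs among them. The part of assembly and quantification in the gap was not tested. In all, 3450 single-exon transcripts (69.8%) were above 0 in every library, and 1 was at 0 in every library.

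The transcript with the highest mean, MSTRG.2424.1, lies at chr1:226113460-226114272, 141 bp beyond the end of Fads2 and on the other strand. Fads2 encodes the delta-6 desaturase of polyunsaturated fatty acid synthesis. MSTRG.2424.1 (813 nt) had 339, 52.8, 524, 74.8 and 65.8 FPKM in SG 1 to SG 5 and 145, 423, 160.2, 229.9 and 67.8 in SHAM 1 to SHAM 5. It was high in SG 1, SG 3 and SHAM 2, and the groups overlapped. The annotated isoforms of Fads2 summed to a mean of only 0.514 FPKM in the same libraries. Assembled isoforms are not in this sum, so it does not show the level of the whole gene.

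The next in rank varied much less. MSTRG.18620.1, a transcript of 454 nt that lies 111564 bp upstream of the glucose transporter gene Slc2a1, had 138, 79.2, 101, 97.7 and 80.7 FPKM in SG and 80.7, 115, 91.6, 116 and 84.5 in SHAM. MSTRG.3602.1, 328 nt long and 130521 bp downstream of the myelin gene Pmp22, had a mean of 62.2 ± 11 FPKM over the SG libraries, against 66.1 ± 7.69 over the SHAM libraries (SD, n = 5 each). By its annotated isoforms alone, neither neighbour was abundant: Slc2a1 had a mean of 2.93 FPKM and Pmp22 0.559 FPKM. In both transcripts the groups overlapped.

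Some abundant transcripts had low or no signal in single libraries. MSTRG.2656.1 (4447 nt, 1687 bp beyond the end of A1cf, whose product takes part in editing of apolipoprotein B mRNA) was at 0 FPKM in SG 2 and at 36.4 to 87.4 FPKM in the other 9. MSTRG.3534.1, 320 bp upstream of the clone-named gene AC119336, had 0.872 FPKM in SHAM 1 and 2.42 in SHAM 5 against 21.2 to 35.6 FPKM in the other 8. MSTRG.14067.1 and MSTRG.14068.1 are the same interval of 3096 nt on opposite strands, 2713 bp from Nodal, a ligand gene of early development. Both had 33.5 to 60.1 FPKM in SG, but the first was at 0 in SHAM 3, where the second had 40.9 FPKM, and the second was at 0 in SHAM 5, where the first had 30.4 FPKM. The interval thus held signal in every library. The annotated isoforms of Nodal summed to a mean of 0.0231 FPKM.

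The longest transcript, MSTRG.24074.1 (70333 nt), lies 15755 bp upstream of the ephrin gene Efna5. Its level was 3.72, 7.88, 1.02, 1.92 and 6.19 FPKM in SG and 1.88, 5.89, 3.61, 3.13 and 1.35 in SHAM. The other long ones, MSTRG.7882.1 (68754 nt) and MSTRG.7665.1 (56132 nt), had means of 1.5 and 1.79 FPKM. All 3 had a strand.

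**Figure D2:**
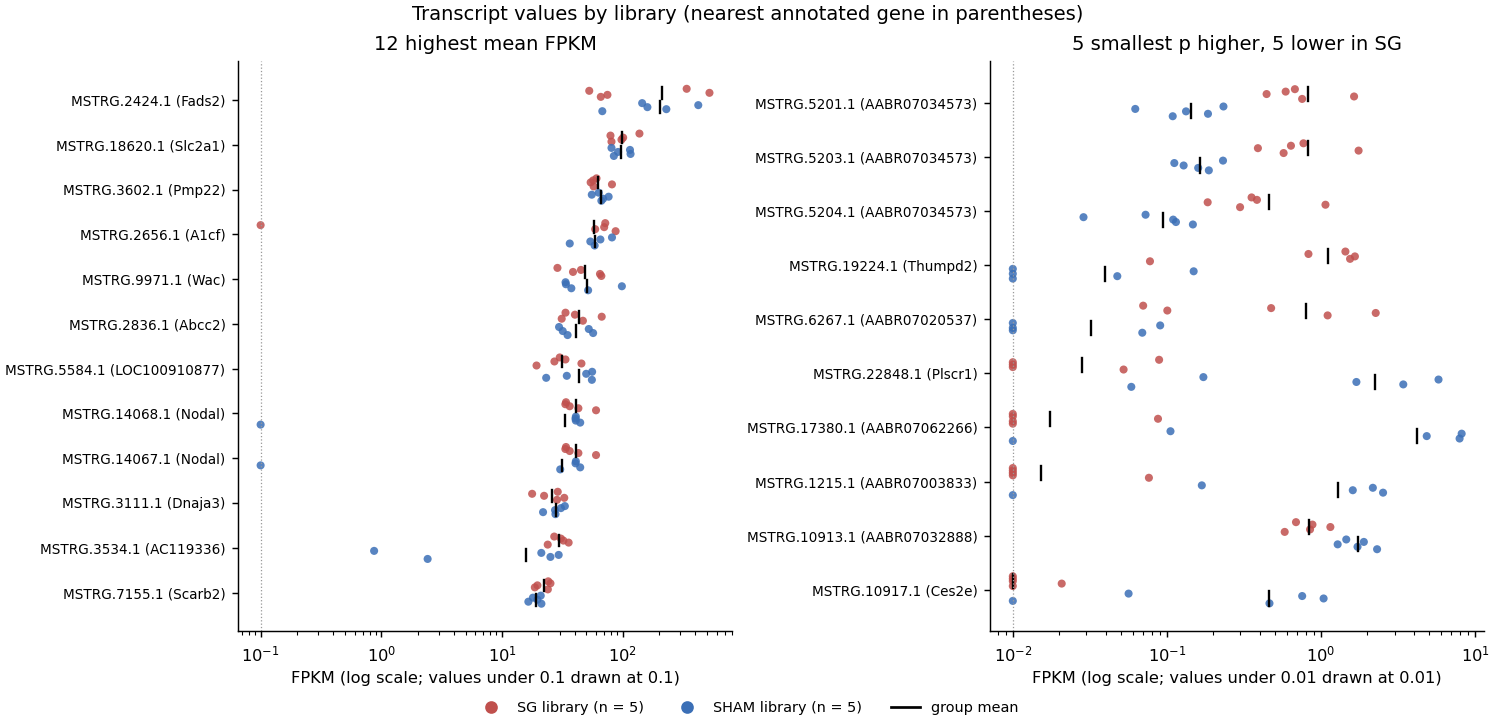
FPKM per library (log axis) of the 12 transcripts with the highest mean (left) and of the 10 with the smallest p in the SG against SHAM comparison (right), with the nearest gene in parentheses; each point is a library, n = 5 a group, and the bar is the group mean. Values under 0.1 (left) or 0.01 (right) are drawn at that level. MSTRG.2656.1 is at 0 in SG 2 alone, and the 3 transcripts near AABR07034573 have every SG point to the right of every SHAM point.

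The comparison of SG with SHAM asks whether any of these transcripts differed by operation. No transcript passed the test. Of the 4940, 4761 (96.4%) passed the filter of a mean of at least 0.1 FPKM and at least 5 libraries above 0. edgeR's quasi-likelihood test over 39559 isoforms called 0 of them at a Benjamini-Hochberg adjusted p of 0.05, and 0 of all isoforms (0%). At an unadjusted p under 0.05, edgeR had 54 of the transcripts higher in SG (1.13%) against 2.16% of all isoforms, and 91 lower (1.91%) against 1.96%. Together these were 145, against 4.12% of all isoforms. DESeq2 called 13 (0.273%; 5 higher, 8 lower) against 0.521% of all isoforms, and limma called 0 against 0.0101%.

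The median shift of the transcripts depended on the scale. Their median log2 fold change, SG over SHAM, was -0.10 in edgeR, where 41.3% were above 0, against -0.01 for all isoforms. It was -0.03 without SHAM 1, and 0.01 in limma on log2(FPKM + 0.1), where the median of all isoforms was 0.07. The levels of SG and SHAM libraries did not overlap for 9 transcripts that were higher in SG (0.189%) and for 8 that were lower (0.168%). Over all isoforms tested these shares were 0.69% and 0.174%.

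Of the 5 transcripts with the smallest p among those higher in SG, 3 were neighbours on chromosome 11. They lie between annotated isoforms that carry the clone name AABR07034573, upstream of the nearer ones. MSTRG.5201.1 (chr11:78991671-78998852, 7182 nt) had 0.677, 0.590, 0.444, 1.64 and 0.754 FPKM in SG and 0.233, 0.0623, 0.133, 0.185 and 0.109 in SHAM. The groups did not overlap, with SG 4 highest by far. Its log2 fold change was 2.43 ± 0.47 (SE), with an edgeR unadjusted p of 0.000476 and an adjusted p of 1, and with a DESeq2 adjusted p of 0.00033. MSTRG.5203.1 and MSTRG.5204.1 had log2 fold changes of 2.26 ± 0.44 and 2.17 ± 0.59, again with no overlap and with SG 4 highest. Without SG 4 the 3 values were 1.99, 1.76 and 1.55. Since these transcripts adjoin each other, they are not 3 independent cases.

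Other transcripts with small p-values were on in a few libraries. MSTRG.19224.1, 224200 bp upstream of Thumpd2, had 0.829 to 1.66 FPKM in SG 1 to SG 4, but only 0.0776 in SG 5, and no SHAM library passed 0.149. MSTRG.22848.1, 120968 bp upstream of the phospholipid scramblase gene Plscr1, had 5.79, 1.70 and 3.42 FPKM in SHAM 2, SHAM 3 and SHAM 4, while none of the 7 remaining libraries passed 0.172. MSTRG.17380.1 (near AABR07062266) and MSTRG.1215.1 (near AABR07003833) were high in the same 3 SHAM libraries, at 8.18, 4.85 and 7.93 FPKM and at 2.17, 1.61 and 2.53 FPKM. In none of these 4 did the groups separate. MSTRG.10913.1, 49192 bp upstream of AABR07032888, did separate, with 0.581 to 1.15 FPKM in SG and 1.28 to 2.31 in SHAM (log2 fold change -1.12 ± 0.28, edgeR adjusted p = 1). MSTRG.10917.1, 10177 bp upstream of the carboxylesterase gene Ces2e, had 0.755, 1.04 and 0.463 FPKM in SHAM 2, SHAM 3 and SHAM 5, with 0.0564 FPKM or less elsewhere. The 10 transcripts named for this comparison were picked by their edgeR p, so a second test on the same counts is no independent support. DESeq2 called 9 of them. The exception was MSTRG.6267.1, which had 0.475, 2.27 and 1.10 FPKM in SG 2, SG 4 and SG 5 and no more than 0.101 FPKM in the 7 remaining libraries.

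The correlation of a transcript with its nearest gene over the 10 libraries was tested for 1751 pairs, those with a tested transcript and a gene mean of at least 1 FPKM. Pearson's r was taken on log2(FPKM + 0.1) and Spearman's rho beside it, with two-sided permutation p-values from 100000 resamples, adjusted over all pairs by Benjamini-Hochberg. The median r was 0.13, and 62.4% of pairs were above 0. By r, 18 pairs passed with a positive sign (1.03% of pairs) and 2 with a negative one (0.114%). Among 684 pairs of spliced intergenic transcripts, 7 passed with a positive sign (1.02%). The difference between these shares was not tested. By rho, 7 pairs passed, 6 of them also by r. With any 1 library left out, 7 to 22 pairs passed: 7 without SG 2, 8 without SG 3, SG 5 or SHAM 3, 9 without SHAM 2 and 13 without SHAM 1. When SG 2 and SHAM 5 were both left out, which was tried only once the values were known, 0 of the 1751 pairs passed, with a lowest adjusted p of 0.0788 among the 20 pairs (permutation test). In that setting r was still 0.69 or more in the positive pairs of the 20 and -0.88 or below in the negative ones. Whether the calls were lost through these 2 libraries or through the smaller number of libraries was not tested.

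Correlation was highest next to genes. The median r was 0.34 for 110 pairs under 1000 bp, 0.38 for 228 pairs at 1000 to 5000 bp, 0.19 for 173 pairs at 5000 to 10000 bp and 0.11 for 432 pairs at 10000 to 50000 bp. It was 0.08 for 217 pairs at 50000 to 100000 bp and 0.04 for 591 pairs beyond. Under 5000 bp, 78.4% of 338 pairs were above 0, and 13 of the 20 called pairs lay there. With the gene on the transcript's other flank, where that gene also had 1 FPKM, the medians were 0.08, 0.13 and 0.06 in the 3 nearest distance classes. Pairs share libraries and nearest genes, so these medians are a description with no p.

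Downstream pairs were no less correlated than upstream pairs near genes, by their medians. At 1000 to 5000 bp the median r was 0.42 for 118 downstream and 0.32 for 110 upstream pairs. By strand, upstream transcripts on the strand opposite to the gene had a median r of 0.34 (96 pairs), those on the same strand 0.22 (125 pairs) and those without a strand 0.11 (808 pairs). Downstream, the medians were 0.27 (74 pairs), 0.13 (61 pairs) and 0.10 (587 pairs) in the same order. These strand classes pool all distances, and transcripts with a strand lay nearer to genes, so strand and distance cannot be told apart here.

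**Figure D3:**
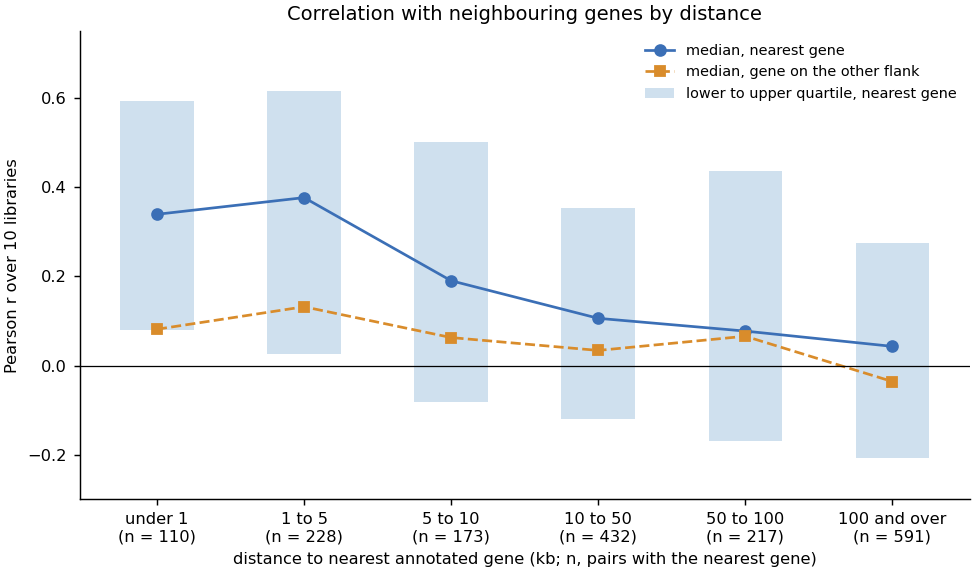
Pearson r over 10 libraries between a transcript and its nearest annotated gene, by distance in kb; circles are medians, boxes run from the lower to the upper quartile, and squares are medians for the gene on the other flank where it could be taken. The median falls from 0.38 at 1000 to 5000 bp to 0.04 beyond 100000 bp.

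The closest called pair was at Abcc2, which encodes the canalicular pump for conjugated bilirubin and other organic anions. MSTRG.2836.1 (chr1:263613273-263615406, 2134 nt) lies 21 bp beyond the end of Abcc2 on the other strand. It had 33.6, 40.2, 67.0, 31.2 and 46.8 FPKM in SG and 29.7, 52.3, 31.9, 56.9 and 34.9 in SHAM. Abcc2 had 80.0, 96.7, 154, 68.1 and 111 FPKM in SG and 73.0, 118, 84.7, 147 and 97.1 in SHAM. Both were highest in SG 3 and SHAM 4. Over the 10 libraries r was 0.965 and rho 0.964 (permutation test, adjusted p = 0.00584 and 0.0175), and r was 0.92 without the 2 libraries farthest from the gene's median. With Dnmbp, the gene on its other flank, r was -0.14. Among the called pairs where it could be taken, r with the other flank ran from -0.26 (MSTRG.17708.1 at Car8) to 0.68 (MSTRG.2619.1 at Ak3). It was 0.67 for MSTRG.8849.1 at Mk1 and 0.65 for MSTRG.18545.1 at Cyp4a3, so not every called transcript moved with its nearest gene alone. The Abcc2 pair passed without each library in turn.

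At Fam129a, a stress-responsive gene, MSTRG.6524.1 lies 2049 bp beyond the gene's end and has no strand. Its level was 0.825, 1.46, 0.504, 1.07 and 0.242 FPKM in SG and 0.647, 0.818, 0.225, 1.25 and 2.53 in SHAM. Fam129a ran from 0.382 FPKM in SHAM 3 to 4.57 in SHAM 5, and the transcript was likewise lowest and highest among SHAM there. The r was 0.969 and rho 0.988 (permutation test, adjusted p = 0.00584 and 0.0175). MSTRG.1010.1, 2595 bp upstream of LOC690000 and on the same strand, had r = 0.968 with it (permutation test, adjusted p = 0.00875), and 0.92 without the 2 farthest libraries. Both pairs also passed without each library in turn.

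Upstream of Clock, the gene of the core circadian transcription factor, lay MSTRG.7296.1 (chr14:34440703-34445910, 5208 nt), 706 bp from the gene and on its strand. It had 1.17, 1.41, 0.631, 1.71 and 2.06 FPKM in SG and 1.32, 0.752, 1.09, 1.52 and 2.18 in SHAM. Clock had 2.95, 5.23, 1.68, 5.35 and 6.64 FPKM in SG and 2.60, 1.92, 3.39, 5.74 and 5.27 in SHAM. Both were low in SG 3 and SHAM 2. The r was 0.912 and rho 0.867 (permutation test, adjusted p = 0.0339 and 0.118), and r was 0.76 without the 2 farthest libraries. The pair passed in 3 of the 10 fits without 1 library, with r from 0.868 to 0.947.

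Of the 18 positive pairs, 8 lay upstream of the gene and under 5000 bp, and RefSeq promoter windows of build GRCr8 matched 6 of the 8 genes by symbol. The 250 bases before the start of 4 of these genes are shown, as examples of promoters next to which transcripts and genes moved together. Those of Mk1 and Serpina5 answer to the same description and are not printed. Each printed sequence reads 5′ to 3′ on the strand of the gene, with CG dinucleotides in capitals. The build differs from that of the table, and the start is RefSeq's. In the headings below, chr14.0, chr1.0 and chr5.0 stand for chromosomes 14, 1 and 5.
Clock, chr14.0:32262500-32262749, plus strand: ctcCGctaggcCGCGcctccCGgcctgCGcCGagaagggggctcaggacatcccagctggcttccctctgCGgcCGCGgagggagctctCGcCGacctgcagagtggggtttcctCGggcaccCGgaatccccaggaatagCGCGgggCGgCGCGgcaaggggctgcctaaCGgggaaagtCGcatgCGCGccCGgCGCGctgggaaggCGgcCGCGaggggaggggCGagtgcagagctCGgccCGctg
Ak3, chr1.0:236178184-236178433, minus strand: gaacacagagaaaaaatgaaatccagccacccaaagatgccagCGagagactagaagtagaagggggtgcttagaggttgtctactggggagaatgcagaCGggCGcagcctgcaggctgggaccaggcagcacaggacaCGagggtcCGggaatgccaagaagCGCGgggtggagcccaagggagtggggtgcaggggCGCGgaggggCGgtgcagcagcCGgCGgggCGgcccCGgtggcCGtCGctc
Slc16a12, chr1.0:241621717-241621966, minus strand: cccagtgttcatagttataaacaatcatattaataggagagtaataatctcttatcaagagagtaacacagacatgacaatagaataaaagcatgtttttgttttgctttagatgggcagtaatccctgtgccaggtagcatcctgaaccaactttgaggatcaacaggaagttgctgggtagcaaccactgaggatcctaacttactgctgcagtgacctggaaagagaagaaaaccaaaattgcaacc
Cyp4a3, chr5.0:134352237-134352486, minus strand: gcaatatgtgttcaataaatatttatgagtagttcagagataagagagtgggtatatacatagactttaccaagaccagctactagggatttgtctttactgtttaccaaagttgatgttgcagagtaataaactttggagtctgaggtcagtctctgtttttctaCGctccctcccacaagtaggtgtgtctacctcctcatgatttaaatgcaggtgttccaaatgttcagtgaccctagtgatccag

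These promoters differ in CG content. Clock has 31 CG dinucleotides and 95.3% of 33469 promoter windows have fewer, Ak3 has 16, Cyp4a3 has 1 and Slc16a12 has 0, against a median of 5. Of the other matched promoters, Mk1 has 4 and Serpina5 has 0. The transcript beside Slc16a12, a monocarboxylate transporter family gene, was MSTRG.2689.1, 26897 nt long, 2667 bp upstream and on the other strand (r = 0.923, rho 0.952). Beside Ak3, a mitochondrial adenylate kinase gene, it was MSTRG.2619.1 (1744 bp, r = 0.907, rho 0.891). Its level was 0.263 FPKM in SHAM 4 and 1.87 FPKM in SHAM 1, where Ak3 had 41.8 and 75 FPKM. Beside Cyp4a3, a fatty acid omega-hydroxylase gene, it was MSTRG.18545.1 (1570 bp, r = 0.927, rho 0.857). That transcript was at 0 in SG 3 and SHAM 2 and reached 2.78 FPKM in SHAM 3, while Cyp4a3 had 19.3, 17.1 and 50.9 FPKM in the same libraries. By rho, the Slc16a12 pair passed (permutation test, adjusted p = 0.045), and those of Ak3 and Cyp4a3 did not (0.0974 and 0.123). With 1 library left out, the Slc16a12 pair passed by r in 6 of 10 fits, that of Ak3 in 2 and that of Cyp4a3 in 1.

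The other positive pairs were Unc5d, a netrin receptor gene (MSTRG.9213.1, r = 0.954), Hist1h2ba, a histone H2B gene (MSTRG.9774.1, 0.913), Sntb2, a syntrophin gene (MSTRG.11299.1, 0.907), Car8, a carbonic anhydrase-related gene (MSTRG.17708.1, 0.896), Mk1 (MSTRG.8849.1, 0.886), and Serpina5, the gene of protein C inhibitor (MSTRG.20205.1, 0.867). Clone-named genes gave 4 more. MSTRG.10216.1 and MSTRG.10220.1 share the neighbour AABR07031168 (r = 0.929 and 0.909), and r was 0.60 and 0.57 without the 2 farthest libraries. MSTRG.7184.1, 22533 bp upstream of the chemokine gene Cxcl1, had 3.13 FPKM in SG 2, where Cxcl1 had 29.1 FPKM, and 0.153 to 1.28 elsewhere. Its r was 0.850 over 10 libraries and 0.68 without SG 2.

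There were 2 negative pairs by r, and 0 by rho or on TMM-scaled CPM. MSTRG.11325.1, 6553 bp beyond the end of Tat, the tyrosine aminotransferase gene of hepatocytes, had 0.750, 1.66, 0.422, 0.351 and 0.857 FPKM in SG and 0.626, 0, 0.764, 0.689 and 0.834 in SHAM. Tat had 186, 131, 304, 276 and 149.8 FPKM in SG and 254, 606, 179, 325 and 175 in SHAM. The transcript was at 0 where Tat was highest, in SHAM 2. The r was -0.910 and rho -0.915 (permutation test, adjusted p = 0.0338 and 0.0642), and r was -0.72 without the 2 farthest libraries. The other, MSTRG.10575.1, lies 302789 bp from Dtwd2 (r = -0.899, rho -0.891, permutation test, adjusted p = 0.0412 and 0.0974). With 1 library left out, the Tat pair passed by r in 3 of 10 fits and that of Dtwd2 in 1. The lowest r among transcripts present in all libraries was -0.963, for MSTRG.7107.1 and Sec31a, a vesicle coat gene, and it did not pass (permutation test, adjusted p = 0.0588). There SHAM 1 stood alone, with 1.51 FPKM of the transcript and 1.74 FPKM of Sec31a, against 5.40 to 9.46 FPKM of Sec31a elsewhere.

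**Figure D4:**
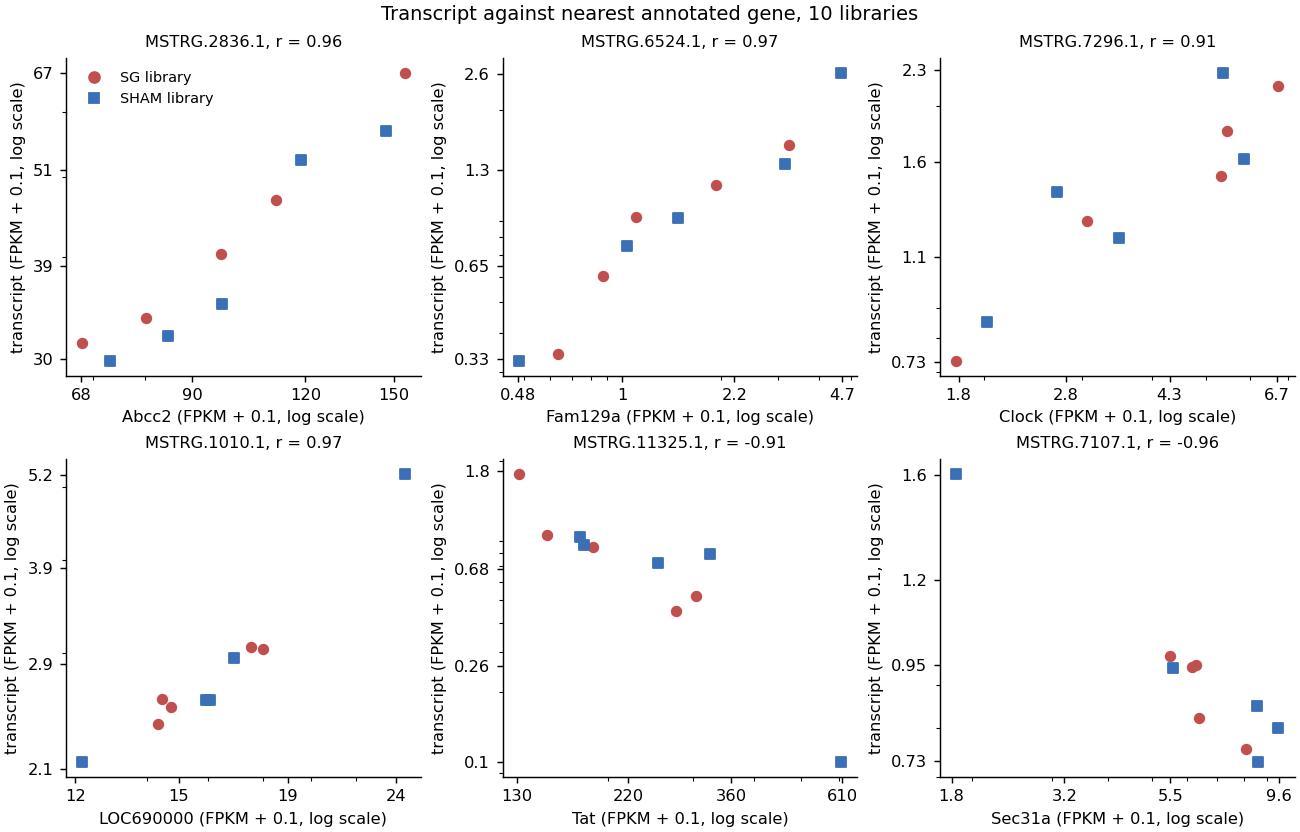
Level of 6 transcripts against their nearest annotated gene, both as FPKM + 0.1 on log axes; each point is a library (circles SG, squares SHAM). Abcc2, Fam129a, Clock and LOC690000 rise with the transcript beside them, Tat and Sec31a run the other way, and the Sec31a relation has SHAM 1 apart from the other libraries.

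Some transcripts had genes of liver functions as their nearest neighbour. Over all annotated genes, 2743 of 22093 were nearest to a transcript. Of 28 plasma protein genes, 4 were nearest to 6 transcripts (Alb, Cp, Fetub and Serpina1), with a median r of 0.08 over 6 pairs and 0 called. Among bile acid and sterol genes, MSTRG.17702.1 lay 6637 bp beyond the end of Cyp7a1, the rate-limiting enzyme gene of bile acid synthesis. Its r was 0.745 and rho 0.455, and it stood at 2.23 FPKM in SHAM 1 against 0.0441 to 0.738 FPKM elsewhere. MSTRG.15972.1, 29045 bp upstream of Insig1, a regulator of sterol synthesis, had r = 0.539, and MSTRG.19995.1, 24449 bp upstream of the bile acid uptake gene Slc10a1, had r = -0.175. None of these 3 pairs passed (permutation test, adjusted p = 0.306, 0.563 and 0.929). Of 14 glucose genes, Igfbp1 and Pck1 were nearest to 6. The 5 transcripts around Pck1, the gluconeogenic carboxykinase gene, had r from -0.701 (MSTRG.15891.1, 9803 bp downstream) to 0.785 (MSTRG.15890.1, 11869 bp upstream), and 0 passed. For MSTRG.15891.1 and MSTRG.15890.1, rho was -0.721 and 0.527. Of 14 clock genes, Clock and Nr1d2 were nearest to 7, with 1 called pair, that of Clock. Of 14 interferon genes, Ifit1, Isg15 and Mx2 were nearest to 4, with 0 called. MSTRG.2685.1, 5965 bp upstream of Ifit1, had r = 0.918 (adjusted p = 0.056 by permutation) and stood at 2.87 FPKM in SHAM 5 against 0.167 to 0.729 FPKM elsewhere.

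Neighbouring transcripts moved with each other. Within 10000 bp of another member lay 1260 transcripts, in 545 groups of up to 8. Between adjacent members the median r was 0.69 for 83 pairs under 500 bp apart, 0.40 for 342 pairs at 1000 to 5000 bp, 0.50 for 129 pairs at 5000 to 10000 bp, 0.20 for 491 pairs at 10000 to 50000 bp and 0.03 for 1583 pairs of 500000 bp or more. Whether adjacent pieces belong to a single RNA was not tested. The counts given here take each row of the table as a unit, so pieces of an RNA, and both strands of an interval, count separately.

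Some transcripts far apart in the genome also shared a profile, and were on in some libraries and off in others. These were looked for after the data were seen and carry no test. Of the 4761 tested, 659 (13.8%) had an SD over libraries of at least 1.5 on the log2(FPKM + 0.1) scale. Among these, 838 of 202937 pairs on different chromosomes had r of at least 0.95 (0.413%), and 257 transcripts (39%) had such a partner. Among 311 spliced intergenic transcripts of like spread the shares were 0.0199% of pairs and 4.5% of transcripts, and among 1377 annotated isoforms 0.0619% and 32.2%. The chance of a partner also grows with the number of candidates.

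The largest set held 50 transcripts on 19 chromosomes, no more than 8 on any of them. Its median level was 1.94, 2.03 and 2.19 FPKM in SG 1, SG 3 and SG 5, 1.79 and 2.59 in SHAM 4 and SHAM 5, and 0.813 in SHAM 3. In SG 2, SG 4, SHAM 1 and SHAM 2 it was 0.00687, 0.0759, 0.00889 and 0.0855 FPKM. MSTRG.8480.1 on chromosome 15, the highest of the set, had 10.9, 8.38, 7.42, 12.3 and 15.3 FPKM in the 5 libraries where the set was highest and 0.113 to 0.679 FPKM in the 4 where it was off. The split ran across SG and SHAM alike.

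A set of 27 transcripts on 14 chromosomes was the mirror image. Its median was 1.61 and 2.03 FPKM in SG 2 and SG 4, 2.41 and 1.80 in SHAM 1 and SHAM 2 and 0.623 in SHAM 3, and did not pass 0.0772 in the 5 remaining libraries. The median profiles of the 2 sets had r = -0.964 over 10 libraries. SHAM 3 held both sets at an intermediate level. MSTRG.1684.1 of this set had 11, 15.6, 22.4, 14.6 and 4.96 FPKM in SG 2, SG 4, SHAM 1, SHAM 2 and SHAM 3 and 0 in the other 5.

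Annotated isoforms split along the same libraries. The transcript ENSRNOT00000071633 of Cyp2c13, a cytochrome P450 of male rat liver, had 304, 427 and 319.5 FPKM in SG 1, SG 3 and SG 5 and 247 and 337 in SHAM 4 and SHAM 5. It had 6.63 and 10.1 FPKM in SG 2 and SG 4 and 6.35 to 10.6 in SHAM 1 to SHAM 3. The other annotated isoform, ENSRNOT00000093005, was at 0 in the 5 libraries where the first was high, and at 60.4, 31.2, 34.5, 33.0 and 11.1 FPKM in SG 2, SG 4, SHAM 1, SHAM 2 and SHAM 3. The annotated isoforms of the helicase gene Ddx42 summed to 1.56 to 4.43 FPKM in SG 2, SG 4, SHAM 1 and SHAM 2. In the 6 remaining libraries they summed to no more than 0.0299 FPKM. Assembled isoforms of Ddx42 are not in this sum, so it does not show whether the whole gene was off. These genes were named because their profiles were among the most like those of the sets, and reads of close P450 copies may be shared between them.

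**Figure D5:**
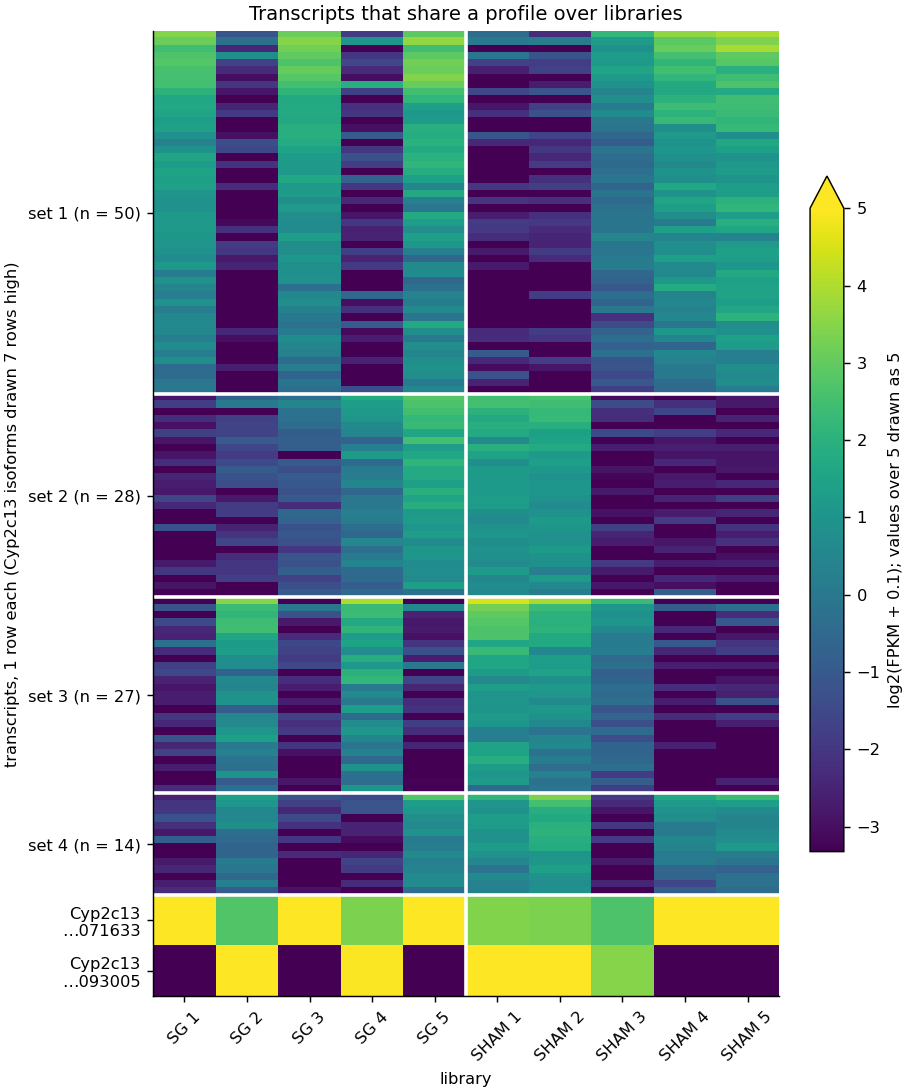
Level, as log2(FPKM + 0.1), of the transcripts in the 4 largest sets that share a profile (rows) in each library (columns), with the 2 annotated Cyp2c13 isoforms at the bottom. Set 1 is high in SG 1, SG 3, SG 5, SHAM 4 and SHAM 5, set 3 is high in SG 2, SG 4, SHAM 1 and SHAM 2, and SHAM 3 lies between.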

How the data were processed

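Liver RNA depleted of ribosomal RNA was sequenced as paired ends in 10 libraries. Per the submitters' processing notes, the tools named are StringTie 1.3.4, HISAT2 2.0.4, FastQC 0.10.1 and cutadapt 1.9, with build Rnor_6.0. The authors deposited FPKM per isoform, and estimated counts per isoform, in 1 table. Within a library these counts are proportional to FPKM times length. Estimated counts were rounded and fitted with edgeR 4.0.16 (TMM factors, quasi-likelihood test, Benjamini-Hochberg adjustment over 39559 isoforms); DESeq2 1.42.0 and limma 3.58.1 were alternatives, and the fit was tested on simulated data. Annotated genes are the summed FPKM of class = isoforms. Distances are gaps between ends. Named are the 5 smallest p in each direction, the 12 highest means, the 3 longest, every called pair and, among transcripts that averaged at least 0.5 FPKM and were above 0 in all 10 libraries, the 8 highest and 4 lowest r. Members and lists were chosen with earlier results of these data known. Shared profiles are connected sets at r of at least 0.95 (networkx 3.6.1). Since FPKM and TMM scaling are relative within a library, a change in total RNA would not be seen. Some results are not reported here.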

Additional observations from a re-analysis of the deposited data

Results flagged for a closer look

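In 17 of 106 groups of 5 libraries tested (16%), 1 library lay far from the other 4 by Dixon's criterion, where chance alone flags about 1 group in 20 of independent, normally spread values. These groups are not of that kind: they come from transcripts named for extreme values, 3 of them adjoin each other, and FPKM is skewed, so 16% is not to be read against that rate. SG 4 stood high in all 3 transcripts near AABR07034573, with 1.64 FPKM of MSTRG.5201.1, 1.75 of MSTRG.5203.1 and 1.07 of MSTRG.5204.1, against at most 0.769 in the other SG libraries. SG 4 was also high in MSTRG.3602.1 (81.5 FPKM, others 54.3 to 60.7). SG 3 was high in MSTRG.20205.1 (3.00 FPKM, others 1.47 to 1.86), MSTRG.9370.1 (1.75, others 0.944 to 1.17) and MSTRG.17380.1 (0.0875, others at 0), and SG 5 in MSTRG.1215.1 (0.0764, others at 0). MSTRG.7184.1 near Cxcl1 was high in SG 2 (3.13 FPKM, others 0.153 to 0.760) and in SHAM 1 (1.28, others 0.170 to 0.319). SHAM 1 was high in MSTRG.16208.1 (7.32 FPKM, others 4.03 to 4.83) and MSTRG.7107.1 (1.51, others 0.628 to 0.843). SHAM 3 was high in MSTRG.9971.1 (98.4 FPKM, others 33.6 to 51.7) and MSTRG.14370.1 (1.12, others 0.355 to 0.531). SHAM 5 was high in MSTRG.1010.1 (5.12 FPKM, others 2.05 to 2.86) and at 0 in MSTRG.14068.1 (others 40.6 to 44.5). SHAM 2 was at 0 in MSTRG.11325.1 (others 0.626 to 0.834 FPKM).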

How the results depend on the processing

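The count of transcripts that differed between SG and SHAM was 0 under every edgeR and limma alternative, including each library left out, and 13 with DESeq2. The replicate block gave 0 calls as well, with 105 unadjusted p under 0.05 in place of 145; same-numbered libraries correlated at -0.02 to 0.02, and 0 libraries correlated best with their own number. The median r of 0.13 was 0.10 on TMM-scaled CPM and 0.16 among transcripts of at least 0.5 FPKM that were above 0 in 10 libraries. The pairs that passed numbered 7 by rho, 32 with contained, junction-sharing and overlapping isoforms added to the gene, 0 without SG 2 and SHAM 5, and 7 to 22 with 1 library left out; the causes were not tested, beyond the fewer libraries. Of the 20 pairs, 20 passed with a pseudocount of 0.5 and 13 on CPM. The median distance was 221017.5 bp to genes of at least 1 FPKM and 122070.0 bp to genes with a full name, since fewer genes were searched. The share of a library was 1.56% by counts in place of 1.31% by FPKM. The detection difference ranged from 7.60 to 7.84 points without 1 library. No called pair changed direction under these alternatives. Low counts limit transcripts near 0.1 FPKM, and the SHAM interval is not given.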

Other observations

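A second on-off profile covered 28 transcripts on 15 chromosomes, with a median of 2.66 FPKM in SG 5, 2.19 in SHAM 1 and 2.05 in SHAM 2, 1.01 in SG 4 and at most 0.410 elsewhere. MSTRG.12338.1, 226324 bp from Cyp7b1, an oxysterol hydroxylase gene, was its highest member, with 6.86, 5.44 and 6.0 FPKM in those 3 libraries. Annotated genes with a like profile were Proc, the protein C gene, at 94.6, 70.9 and 92.2 FPKM in SG 5, SHAM 1 and SHAM 2 and 2.15 to 7.94 FPKM in the other 7. The reverse was seen in the annotated isoforms of E2f6, a transcription factor gene, and Cndp2, a dipeptidase gene. Their sums were at 0 FPKM in those 3 libraries and at 4.99 to 6.55 and 12 to 20 FPKM in the other 7. Assembled isoforms are not in these gene sums, so they do not show whether a whole gene was off. All these transcripts and genes were chosen after their values were seen and carry no test.

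In 13 places the table holds the same single-exon interval on both strands, 26 transcripts in all. In 88 of 130 library values the 2 strands were equal within 0.0001 FPKM.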
